A study of Mus musculus with 30 samples.

Results

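Otx2, Pou3f1, Foxd3, Fgf5 and Trh are 5 genes of the formative epiblast, and they were followed through the 18 RNA libraries of a mouse embryonic stem cell study of ETV2 (also called ER71) and the histone demethylase KDM4A. They are 5 of 55487 genes in the deposited count tables. They were chosen from listed epiblast genes because they moved in opposite directions in 2 of the experiments, down with doxycycline (DOX) in the iETV2 line and up in the cells labelled KDM4A/4C DKO. Those 2 changes, the difference between the lines in the DOX response and both comparisons of the lines are therefore given as descriptions with no test. For the 5 genes a test is given only for DOX in the second line.

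The formative state is the step that pluripotent cells pass through between the naive state of the early epiblast and the primed state that answers signals for the germ layers. Naive cells switch off regulators such as Esrrb and Zfp42 and switch on Otx2, Pou3f1 and Fgf5 in this step. Later in the embryo Otx2 and Pou3f1 also mark the anterior neural plate, and Foxd3 marks the neural crest. ETV2, a member of the ETS family, starts the blood and endothelial programmes of the embryo. KDM4A and KDM4C remove methyl groups from lysine 9 of histone H3, whose trimethylated form, H3K9me3, marks silenced chromatin.

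The RNA groups held 3 libraries each. They were iETV2 with DOX and its untreated control, the line iETV2-KDM4A (H188A) with DOX and its untreated control, and KDM4A/4C DKO cells with their own control. H188A changes a histidine of KDM4A that binds the catalytic iron. The labels call all cells embryonic stem cells. For the RNA groups they give neither the length of the DOX treatment, the number of clones nor whether replicates were separate cultures, so p-values measure the spread between these libraries only. H3K9me3 was mapped in 3 DOX and 3 untreated libraries of a line that the labels do not name. The ChIP titles begin with EB, which the labels do not expand, and the DOX titles carry D2, D3 or Er71-Flag with D2, so the 3 DOX libraries are not labelled alike.

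Etv2 RNA checked the DOX labels. It averaged 18.6 ± 0.89 CPM (counts scaled to the same total in every library) in iETV2 with DOX and 2.93 ± 0.18 CPM in the iETV2 control (SD, n = 3 each). In H188A it averaged 15.2 ± 3.5 CPM with DOX and 0.376 ± 0.27 CPM without (SD, n = 3 each). Kdm4a did not pass the test with DOX in H188A (86.9 ± 2.9 against 83.5 ± 3.2 CPM, SD, n = 3 each, adjusted p = 0.262 by edgeR's quasi-likelihood test). In the libraries labelled KDM4A/4C DKO, Kdm4a averaged 43.9 ± 2.6 CPM, against 54.6 ± 0.94 CPM in their control (SD, n = 3 each, adjusted p = 6.82e-08 by edgeR). Kdm4c averaged 45.5 ± 2.6 CPM, against 30.7 ± 1.3 CPM in their control (SD, n = 3 each, adjusted p = 5.02e-07 by edgeR), and was thus higher where its deletion is labelled. Counts per gene cannot show a deletion that leaves a transcript, so the group is called DKO-labelled and each direction below rests on that label.

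The embryonic stem cell label was checked with 6 markers (Pou5f1, Nanog, Sox2, Zfp42, Esrrb, Klf4). Their summed level was 951 to 996 CPM in the DKO-labelled libraries and only 40.3 to 43.7 CPM in their control, where Zfp42 averaged 0.607 CPM. In the control group Pou5f1 averaged 22.8 CPM and Nanog 6.98 CPM, against 370 and 210 CPM in DKO-labelled cells. The other 4 groups had 502 to 1369 CPM of these markers. Markers of gastrulating mesoderm (T, Mixl1, Eomes, Mesp1, Kdr) summed to 1461 to 1502 CPM in iETV2 with DOX and 1052 to 1114 CPM in its control. They summed to only 78.4 to 79.3 CPM in H188A with DOX and 19.3 to 22.9 CPM in its control. DKO-labelled libraries had 855 to 875 CPM of them, against 564 to 569 CPM in their control, while Kdr alone had 84.3 CPM, against 353 CPM. The groups therefore differ in which cell types their RNA shows, and in bulk RNA fewer cells of a type and less RNA per cell cannot be told apart.

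The sequence before each start site is shown for the 4 genes that had one in the RefSeq table used here (GRCm38.p6), because ETV2 binds DNA at the ETS core GGAA. The table has 4 starts for Otx2, of which the farthest upstream is shown and described. Each run holds the 250 bases before the start, 5′ to 3′ on the gene's strand. Capitals mark matches, on either strand, to CCGGAA and CAGGAA (the ETS core with 2 flanking bases), TATAAA (the TATA box), TGACGTCA (the cyclic AMP response element) and CACGTG (an E-box). Otx2 lies at chr14:48667645-48667894 on the minus strand, Foxd3 at chr4:99656049-99656298 on the plus strand, Fgf5 at chr5:98253934-98254183 on the plus strand and Trh at chr6:92244651-92244900 on the minus strand.
Otx2: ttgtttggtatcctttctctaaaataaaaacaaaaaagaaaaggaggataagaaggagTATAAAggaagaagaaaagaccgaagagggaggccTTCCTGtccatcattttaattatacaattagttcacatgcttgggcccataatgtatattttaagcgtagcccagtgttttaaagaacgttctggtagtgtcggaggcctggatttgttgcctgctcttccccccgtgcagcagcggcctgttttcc
Foxd3: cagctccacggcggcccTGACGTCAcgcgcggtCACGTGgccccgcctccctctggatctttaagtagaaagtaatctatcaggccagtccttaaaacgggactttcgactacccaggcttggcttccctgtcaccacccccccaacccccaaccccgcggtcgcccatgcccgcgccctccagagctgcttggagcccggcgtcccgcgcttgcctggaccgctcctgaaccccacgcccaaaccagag
Fgf5: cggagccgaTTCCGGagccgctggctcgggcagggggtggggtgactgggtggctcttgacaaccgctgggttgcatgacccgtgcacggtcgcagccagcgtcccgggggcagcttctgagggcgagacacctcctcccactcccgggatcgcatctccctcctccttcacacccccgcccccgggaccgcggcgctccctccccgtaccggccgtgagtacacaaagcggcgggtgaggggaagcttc
Trh: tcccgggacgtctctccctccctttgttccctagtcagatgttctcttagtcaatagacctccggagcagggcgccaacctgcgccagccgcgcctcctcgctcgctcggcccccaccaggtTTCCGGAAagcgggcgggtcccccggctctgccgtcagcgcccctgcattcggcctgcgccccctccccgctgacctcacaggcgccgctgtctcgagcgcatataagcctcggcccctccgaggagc
GC made up 42.0% of the Otx2 sequence, 65.6% of that of Foxd3, 70.8% of that of Fgf5 and 68.8% of that of Trh, against a median of 52.0% over 27025 promoters. CCGGAA was found 1 time before Fgf5 and 2 times, overlapping, before Trh, and 12.2% of all promoters held it. CAGGAA was found 1 time before Otx2, as in 25.4% of promoters, and Otx2 alone of the 4 held TATAAA (13.0% of promoters). TATAAA was scored anywhere in the 250 bases, far from the start in Otx2. The similar TATAAG close to the start of Trh was not scored, so the match does not show which gene has a TATA box. Foxd3 held TGACGTCA (1.62% of promoters) and CACGTG (6.05%). The bare core GGAA, which is not capitalised, was in all 4 and in 93.4% of promoters. The GC box GGGCGG, likewise not capitalised, was found 1 time each before Fgf5 and Trh (32.9% of promoters). Neither TAATCC, bound by OTX and related homeodomains (6.38% of promoters), nor the POU octamer ATGCAAAT (1.61%) was in any of the 4. A match is a description of these letters and not a bound site.

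Levels in each library are in CPM of the library total. Otx2 encodes a homeodomain factor that drives exit from the naive state. It had 58.9, 57.1 and 57.8 CPM in iETV2 with DOX, against 142, 139 and 139 CPM in the iETV2 control. H188A with DOX had 145, 155 and 156 CPM, against 135, 155 and 160 CPM in its control. DKO-labelled libraries had 107, 103 and 98.8 CPM, against 1.85, 1.65 and 2.15 CPM in their control. The H188A control overlapped both H188A with DOX and the iETV2 control, while H188A with DOX lay above the iETV2 control. Otx2 was lower in the DKO-labelled cells than in those 3 groups, lower again in iETV2 with DOX and close to 2 CPM in the control of the DKO-labelled cells.

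Pou3f1 encodes a POU-domain factor, also called OCT6, of the primed epiblast. It had 5.87, 5.00 and 4.96 CPM in iETV2 with DOX, against 31.1, 31.6 and 27.2 CPM in the iETV2 control. H188A with DOX had 63.4, 74.7 and 82.7 CPM, against 77.3, 87.7 and 86.7 CPM in its control. DKO-labelled libraries had 14.2, 14.4 and 13.5 CPM, against 2.30, 2.16 and 1.64 CPM in their control. Its groups did not overlap except for the pair of H188A groups, and H188A cells had the highest levels of the series.

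Foxd3 encodes a forkhead repressor that the epiblast needs. It had 2.46, 1.92 and 1.56 CPM in iETV2 with DOX, against 7.71, 6.93 and 6.60 CPM in the iETV2 control. H188A with DOX had 22.4, 28.3 and 29.6 CPM, against 33.1, 32.3 and 33.2 CPM in its control. DKO-labelled libraries had 8.28, 8.33 and 6.51 CPM, against 0.0719, 0.0392 and 0.0316 CPM in their control. The last group rests on 8 reads in its 3 libraries together, and the pooled ratio of DKO-labelled to control was 164 with a 95% counting interval of 83.0 to 381. Foxd3 was, like Pou3f1, highest in H188A, and its DKO-labelled and iETV2 control ranges overlapped.

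Fgf5 encodes a secreted fibroblast growth factor and is the usual marker of the epiblast after implantation. It had 45.2, 44.4 and 41.4 CPM in iETV2 with DOX, against 132, 137 and 140 CPM in the iETV2 control. H188A with DOX had 54.7, 69.0 and 68.1 CPM, against 60.3, 64.9 and 64.8 CPM in its control. DKO-labelled libraries had 25.2, 25.2 and 23.5 CPM, against 0.108, 0.451 and 0.253 CPM in their control. Here the iETV2 control was the highest group and DKO-labelled cells had less than every iETV2 or H188A library. The control of the DKO-labelled cells held 45 reads in all, and the pooled ratio was 93.1 with an interval of 69.4 to 128.

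Trh encodes the precursor of thyrotropin-releasing hormone. It had 237, 216 and 249 CPM in iETV2 with DOX, against 667, 594 and 653 CPM in the iETV2 control. H188A with DOX had 115, 149 and 144 CPM, against 147, 156 and 151 CPM in its control. DKO-labelled libraries had 578, 579 and 563 CPM, against 4.96, 5.35 and 5.96 CPM in their control. Trh ran opposite to Pou3f1 and Foxd3 across the lines, since both H188A groups lay below both iETV2 groups.

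**Figure D1:**
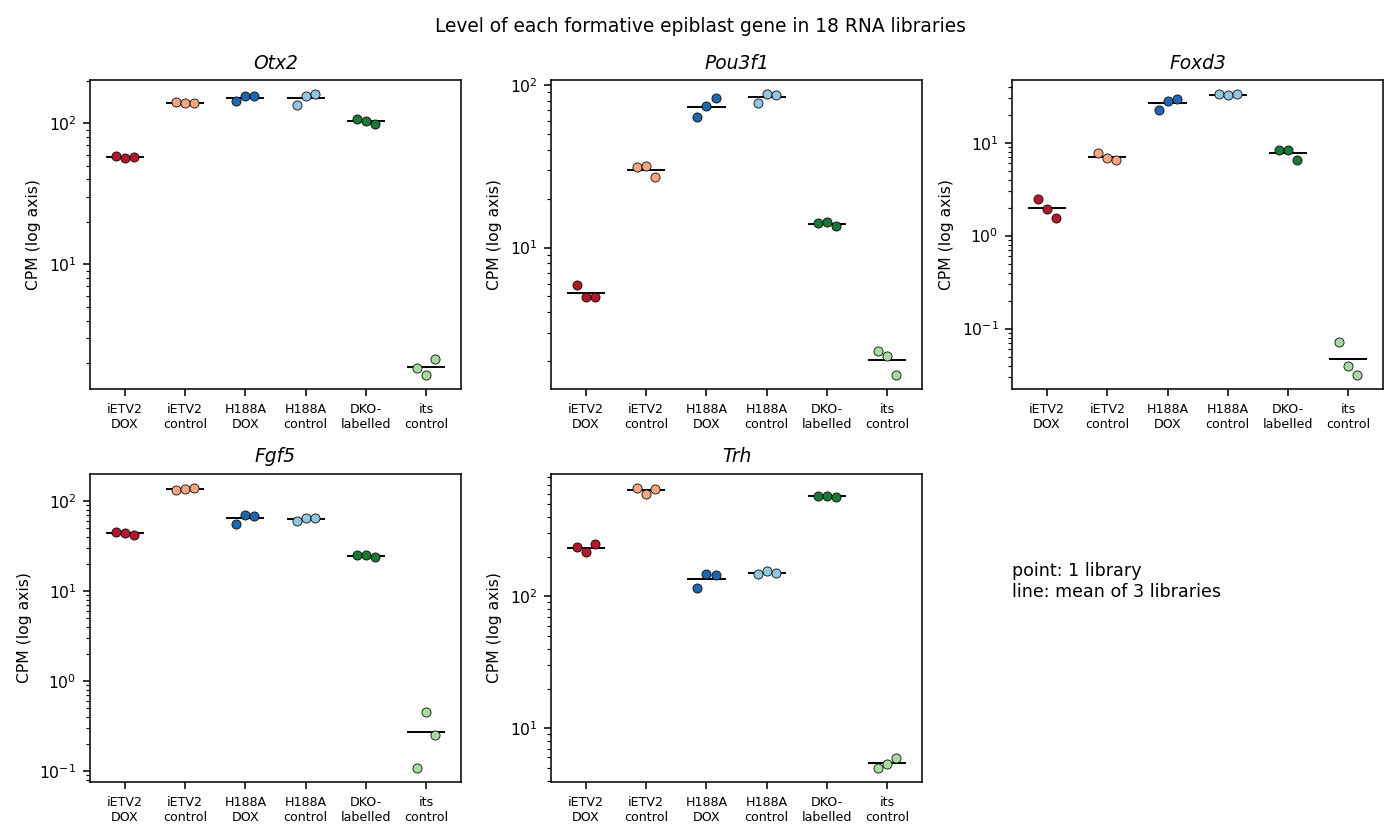
CPM of each gene (log axis) in each RNA library, with points for libraries and lines for the mean of 3. In every panel iETV2 with DOX sits below the iETV2 control and the DKO-labelled libraries sit above their control, while the H188A groups lie close together.

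With DOX in iETV2 the 5 genes were lower by a log2 change of −1.26 ± 0.07 (Otx2), −2.50 ± 0.11 (Pou3f1), −1.82 ± 0.17 (Foxd3), −1.62 ± 0.07 (Fgf5) and −1.43 ± 0.07 (Trh), each ± SE with 3 libraries against 3. The genes were chosen for this fall, so no test of them is given. Of 22025 genes tested 27.0% were called and 13.3% were called lower. The median gene changed by 0.00 and the lowest 5% of genes lay below −1.14. Pou3f1 was the most reduced, 5.68 times lower by mean CPM, and Otx2 the least, 2.42 times lower.

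In DKO-labelled cells the log2 changes were 5.64 ± 0.07 (Otx2), 2.67 ± 0.12 (Pou3f1), 7.17 ± 0.27 (Foxd3), 6.41 ± 0.17 (Fgf5) and 6.60 ± 0.05 (Trh), each ± SE with 3 libraries against 3. Of 20426 genes tested, 69.3% were called, 35.6% higher and 33.7% lower. The upper 5% of genes lay above 2.95, which 4 of the 5 genes exceeded and Pou3f1 did not. Pou3f1 thus had the largest decrease with DOX and the smallest increase here. The embryonic stem cell markers moved with these changes, since all 6 rose in DKO-labelled cells with a median log2 change of 4.58, and their part in the result was not tested. Of the 5 gastrulating mesoderm markers 3 rose and Kdr fell there, and their part was not tested either. Genes called lower with DOX and higher in DKO-labelled cells were 1407 of 19521 tested in both experiments, or 7.21%.

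In H188A, a comparison the choice did not use, DOX gave none of the 5 genes a called change, where 3.02% of 21086 genes were called, 2.22% higher and 0.801% lower (edgeR's quasi-likelihood test with Benjamini-Hochberg adjustment). That share rests on single libraries, since leaving out 1 gave 81 to 1839 called genes in place of 637. Without H188A control replicate 3, 758 genes were higher and 1081 lower, against 468 and 169 with every library. DESeq2 also called 0 of the 5, and 1 gene, Foxd3, had an unadjusted p under 0.05. Otx2 changed by 0.06 ± 0.07 with a 95% interval of −0.10 to 0.23 (adjusted p = 0.642), and Fgf5 by 0.06 ± 0.09 with an interval of −0.13 to 0.25 (adjusted p = 0.703). For Pou3f1 the value was −0.14 ± 0.09 with an interval of −0.35 to 0.07 (adjusted p = 0.389), and for Trh −0.11 ± 0.09 with an interval of −0.30 to 0.08 (adjusted p = 0.461). Foxd3 had −0.25 ± 0.10 with an interval of −0.46 to −0.03 (adjusted p = 0.169). Its libraries with DOX all lay below those without, but the share of all genes so separated was not counted. The difference between the lines in the DOX response, H188A minus iETV2, was 1.33 ± 0.11 for Otx2, 2.36 ± 0.17 for Pou3f1, 1.58 ± 0.20 for Foxd3, 1.69 ± 0.12 for Fgf5 and 1.33 ± 0.12 for Trh. It contains the contrast that chose the genes and has no test. Over 25516 genes, 14.4% were called for this difference, 8.22% above 0 and 6.20% below.

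Libraries of H188A stood apart in ways that touch these values. With DOX, replicate 1 was the lowest of its group for 5 of the 5 genes. Replicate 3 of the DKO-labelled cells was too, so this rank is not particular to H188A. The share of all genes lowest in either library was not counted. In H188A with DOX, visceral endoderm markers (16 genes) summed to 1325 CPM in replicate 1, against 650 and 644 CPM in replicates 2 and 3. Without DOX those markers summed to 845, 804 and 805 CPM. Without DOX replicate 1 the log2 changes were 0.11 (Otx2), −0.03 (Pou3f1), −0.12 (Foxd3), 0.17 (Fgf5) and 0.01 (Trh), with adjusted p between 0.185 and 0.940. H188A control replicate 1 was the lowest of its group for 4 of the 5 genes, and its 1754 olfactory, vomeronasal and trace amine receptor genes summed to 598 CPM, against 195 and 49.1 CPM in the other two. The part of either library's makeup in the members' values was not tested beyond leaving it out.

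Between the lines the 5 genes did not move as one. Both comparisons reuse the libraries of the DOX comparisons, and line and any batch that goes with it cannot be told apart in them. The untreated iETV2 libraries, in which the genes were chosen for being higher than with DOX, enter the first. That favours lower values in H188A, so no test of the 5 genes is given. Without DOX, 38.3% of 25516 genes were called between H188A and iETV2, 19.7% higher and 18.6% lower. Pou3f1 was higher in H188A by 1.53 ± 0.11 and Foxd3 by 2.26 ± 0.14 on the log2 scale. Fgf5 was lower, with −1.05 ± 0.09, and so was Trh, with −2.02 ± 0.09. Otx2 had 0.15 ± 0.08 with an interval of −0.01 to 0.32. Its value was 0.24 without H188A control replicate 1 and 0.15 with a filter of 1 CPM.

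With DOX in both lines the genes are set against the iETV2 libraries in which they were chosen for being low, which favours higher values in H188A, so no test is given. Over all genes 37.6% were called, 19.9% higher and 17.6% lower. The log2 difference, H188A minus iETV2, was 1.48 ± 0.08 for Otx2, 3.89 ± 0.13 for Pou3f1, 3.85 ± 0.15 for Foxd3, 0.64 ± 0.09 for Fgf5 and −0.69 ± 0.09 for Trh (± SE, 3 libraries against 3). Fgf5 therefore lay below iETV2 without DOX and above it with DOX. Markers of gastrulating mesoderm also differed between the lines, with 5 of 5 lower in H188A without and with DOX, and their part in these differences was not tested.

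**Figure D2:**
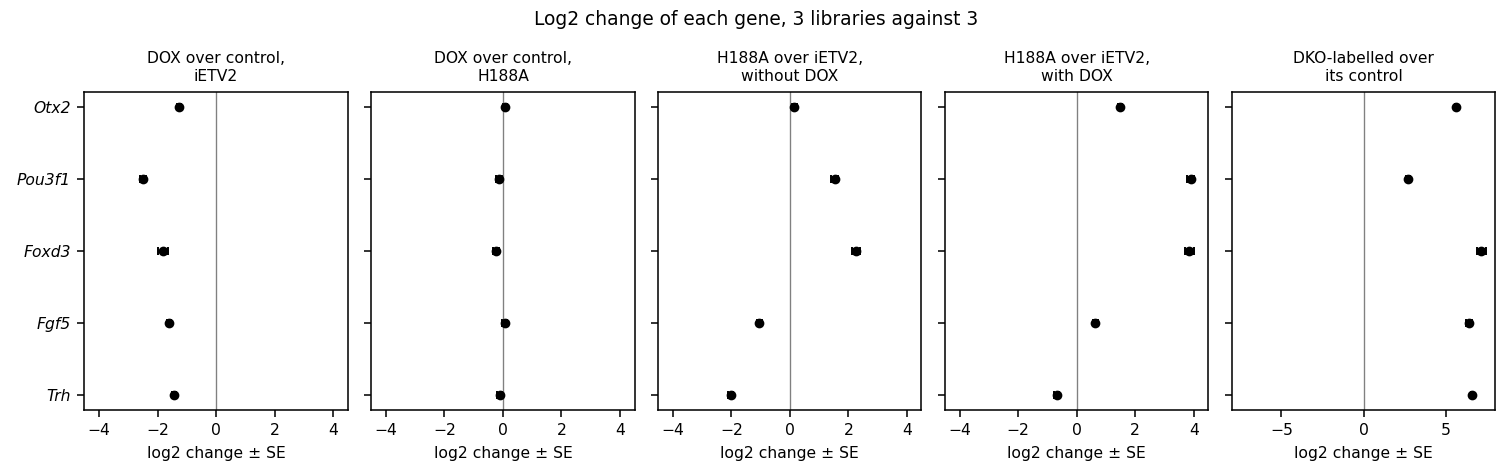
Log2 change ± SE of each gene in 5 comparisons of 3 libraries against 3. All 5 genes lie left of 0 with DOX in iETV2, near 0 with DOX in H188A and right of 0 in DKO-labelled cells (wider axis), while the comparisons between the lines split them.

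As a description, the balance among the genes differed by line. The ratio of Trh to Otx2 CPM in the same library averaged 4.04 ± 0.27 in iETV2 with DOX and 4.56 ± 0.23 in its control (SD, n = 3 each). It was 0.894 ± 0.087 in H188A with DOX and 1.01 ± 0.073 in its control. DKO-labelled libraries had 5.57 ± 0.13, against 2.90 ± 0.31 in their control. A ratio of CPM carries the lengths of both transcripts, so only its change between groups is read, and Trh relative to Otx2 was lower in both H188A groups than in any other group.

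Pou3f1 relative to Otx2 ran the other way among the lines. Its ratio was 0.0911 ± 0.0075 in iETV2 with DOX and 0.214 ± 0.017 in its control (SD, n = 3 each). It was 0.484 ± 0.047 in H188A with DOX and 0.560 ± 0.017 in its control. DKO-labelled libraries had 0.137 ± 0.0029, against 1.11 ± 0.30 in their control, where both genes are close to 2 CPM. The ratio of Foxd3 to Pou3f1 had 0.373 ± 0.053 in iETV2 with DOX and 0.237 ± 0.015 in its control (SD, n = 3 each). In H188A it had 0.364 ± 0.014 with DOX and 0.394 ± 0.031 without, and the ranges overlapped. It had 0.547 ± 0.058 in DKO-labelled cells and 0.0229 ± 0.0073 in their control.

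Over the 18 libraries, Pearson's r of log2(CPM + 1) between the genes ran from 0.496 (Pou3f1 with Trh) to 0.978 (Pou3f1 with Foxd3). Otx2 with Fgf5 had 0.955 and Otx2 with Trh 0.884. The points share 6 group means, so r describes the group pattern. Among 13219 genes, Otx2 was followed most closely by Pim2, a serine/threonine kinase gene (r = 0.998), and Epb41l4a (0.994). Pim2 averaged 203 CPM in iETV2 with DOX and 523 CPM in its control, 499 and 460 CPM in H188A with and without DOX, and 403 CPM in DKO-labelled cells, against 13.5 CPM in their control. Pou3f1 was followed by Tmem231 (0.992) and Castor2 (0.990), and Foxd3 by Sema4d (0.992) and Dtx1 (0.988). Fgf5 was followed by Esrp1, a splicing factor of epithelial cells (0.992), and Stmn2 (0.992), and Trh by the ephrin receptor Epha2 (0.989) and the guidance cue Ntn1 (0.988).

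The other formative and primed epiblast genes were split. Of 22, 13 fell and 4 rose with DOX in iETV2, where 13.3% and 13.7% of all genes did. Their median log2 change was −0.41 against 0.00 over all genes. Pim2 (−1.35 ± 0.07, adjusted p = 7.15e-10), the WNT ligand Wnt8a (−1.23 ± 0.08, adjusted p = 9.32e-09) and the zinc-finger factors Zic5 (−1.13 ± 0.08, adjusted p = 1.10e-08) and Zic2 (−1.05 ± 0.07, adjusted p = 1.97e-08) fell. The WNT effector Lef1 (0.54 ± 0.08, adjusted p = 0.000135), the NODAL co-receptor Tdgf1 (0.37 ± 0.06, adjusted p = 0.000279), the cadherin Cdh2 (0.40 ± 0.08, adjusted p = 0.000751) and the ETS factor Etv5 (0.26 ± 0.07, adjusted p = 0.0126) rose.

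In DKO-labelled cells 16 of these 22 rose and 5 fell, where 35.6% and 33.7% of all genes did. Their median was 1.67 against 0.04 over all genes. Utf1, a chromatin factor of pluripotent cells (4.94 ± 0.07, adjusted p = 6.09e-23), Pim2 (4.77 ± 0.05, adjusted p = 1.26e-25) and Tdgf1 (3.36 ± 0.04, adjusted p = 2.17e-24) rose. Fgf15, a secreted FGF, fell with −4.52 ± 0.07 (adjusted p = 6.16e-23). Both moves of the 5 genes, lower with DOX and higher in DKO-labelled cells, were shared by 10 of the 22, or 45.5%, where 7.21% of all genes showed them. This list and those below were chosen with earlier results of these data known, so their shares are descriptions and not independent support. Dnmt3b, Etv4, Pim2, Sox3 and Wnt8a were among the 10. The rest included 3 lower in both (Sall2, Sox4 and Tead2, 4.02% of all genes), 2 higher in both (Etv5 and Tdgf1, 5.44%) and Cdh2, higher with DOX and lower in DKO-labelled cells (7.65%).

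In the H188A line 1 of the 22 rose with DOX (Tead2, 0.31 ± 0.05, adjusted p = 0.0238) and 1 fell (Etv4, −0.47 ± 0.08, adjusted p = 0.0175). Of all genes 2.22% rose and 0.801% fell there. Between the lines 12 were higher and 7 lower in H188A without DOX (median 0.44 against 0.10 over all genes), and 14 higher and 6 lower with DOX (median 1.03 against −0.08). Of all genes 19.7% were higher and 18.6% lower without DOX, and 19.9% and 17.6% with DOX. Utf1 was higher in H188A by 2.75 ± 0.13 without DOX (adjusted p = 1.10e-10) and Wnt8a lower with −5.10 ± 0.18 (adjusted p = 2.99e-12).

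Naive pluripotency genes moved another way with DOX. Of 14, 9 rose and 0 fell in iETV2 (median 1.05 by log2), where 13.7% and 13.3% of all genes did. The 9 included Tbx3 (4.65 ± 0.11, adjusted p = 4.77e-14), Nr5a2 (1.39 ± 0.09, adjusted p = 4.20e-09), Esrrb (1.34 ± 0.08, adjusted p = 3.42e-09) and Zfp42 (1.31 ± 0.07, adjusted p = 1.12e-09). In DKO-labelled cells 13 rose and Tbx3 fell (median 4.34), where 35.6% and 33.7% of all genes did. With DOX in H188A 1 of 14 fell, Klf5 (−0.25 ± 0.05, adjusted p = 0.0350), where 0.801% of all genes did. In H188A against iETV2, 14 were higher without DOX and 13 with DOX, with Tbx3 lower. The share of all genes higher in H188A was 19.7% without DOX and 19.9% with DOX. None of the 14 was lower with DOX and higher in DKO-labelled cells (7.21% of all genes), while 8 were higher in both (5.44%).

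**Figure D3:**
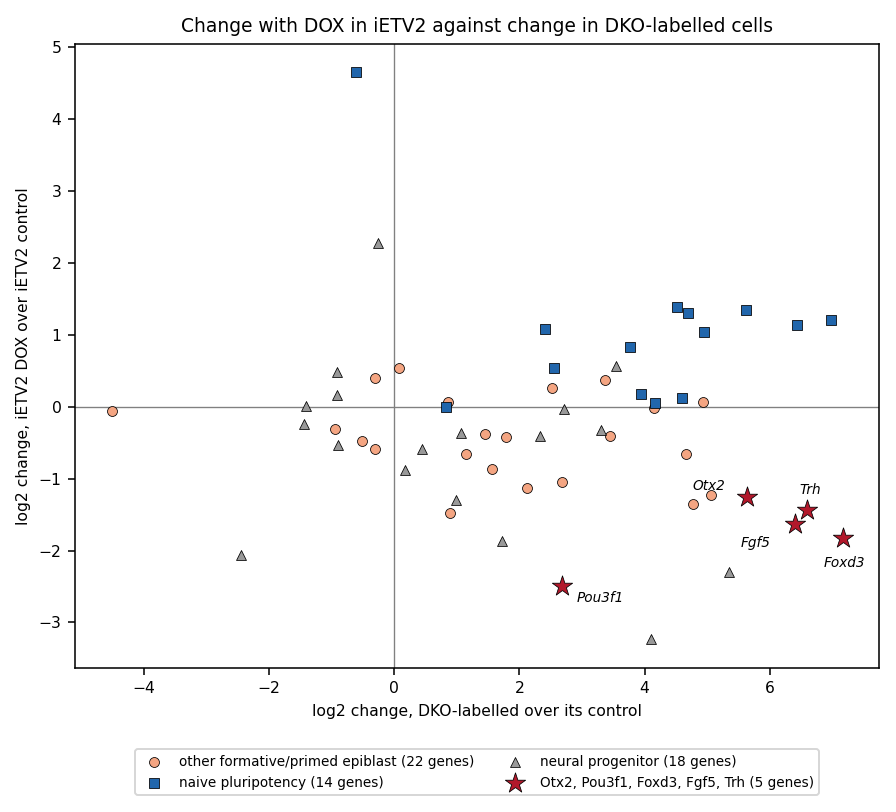
Log2 change with DOX in iETV2 (vertical) against log2 change in DKO-labelled cells (horizontal), 1 symbol per gene tested in both. The 5 genes, which were chosen for it, lie at the lower right with 10 of 22 other formative genes called in those directions, and the naive genes lie on or above the horizontal line.

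Genes of other cell types that share these markers were counted too. Of 21 neural progenitor genes tested, 9 fell and 1 rose with DOX in iETV2 (median −0.53), where 13.3% and 13.7% of all genes did, among them the forebrain factors Six3 (−3.83 ± 0.27, adjusted p = 1.77e-08) and Hesx1 (−3.23 ± 0.30, adjusted p = 4.92e-07), at 0.684 and 0.353 CPM with DOX. In DKO-labelled cells 11 of 19 rose and 5 fell (median 0.99), where 35.6% and 33.7% of all genes did, with Olig2 up by 5.34 ± 0.11 (adjusted p = 1.23e-20). In H188A, 1 of 22 fell with DOX, Zic1 (−1.21 ± 0.22, adjusted p = 0.0239), where 0.801% of all genes did. Summed over 22 genes this list held 155 to 161 CPM in iETV2 with DOX and 270 to 274 CPM in its control, and 187 to 196 CPM in DKO-labelled cells, against 132 to 142 CPM in their control. Its part in the changes of Otx2 and Pou3f1 was not tested.

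Foxd3 is also a neural crest gene, so 14 genes of the crest were counted. Of these, 6 rose and 1 fell with DOX in iETV2 (median 0.26), where 13.7% and 13.3% of all genes did, with the homeobox genes Msx2 up by 5.47 ± 0.16 (adjusted p = 5.38e-13) and Msx1 up by 3.77 ± 0.09 (adjusted p = 5.45e-14) and Sox9 down with −1.18 ± 0.10 (adjusted p = 1.05e-07). In DKO-labelled cells 3 of 12 rose and 5 fell (median −0.13), which is near the 69.3% of all genes called there, and Snai2 fell with −3.24 ± 0.10 (adjusted p = 3.29e-17). In H188A, 2 of 14 rose and 2 fell with DOX, where 2.22% and 0.801% of all genes did. Sox10, which defines migrating crest, averaged 1.31 CPM in DKO-labelled cells and 0.426 CPM in their control.

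Of the 15 visceral endoderm genes tested with DOX in iETV2, 5 rose and 5 fell (median 0.22), where 27.0% of all genes were called. Cer1 (−2.60 ± 0.08, adjusted p = 1.60e-12) and Foxa2 (−2.50 ± 0.08, adjusted p = 1.64e-12), which Otx2-expressing anterior endoderm also uses, fell, and Gata4 rose by 1.32 ± 0.07 (adjusted p = 1.01e-09). In DKO-labelled cells 3 of 14 rose and 8 fell (median −0.47), where 69.3% of all genes were called. In H188A, 2 of 16 rose with DOX (Hhex and Lhx1), where 2.22% of all genes did.

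Relatives of the 5 genes were low as a list, with 2 to 5 of the 10 averaging at least 1 CPM in a group. Of 9 tested with DOX in iETV2, Foxd4 (−5.43 ± 0.27, adjusted p = 3.80e-10), Pou3f2 (−1.57 ± 0.44, adjusted p = 0.0141) and Foxd1 (−1.42 ± 0.43, adjusted p = 0.0215) fell, and Otx1 rose by 0.76 ± 0.15 (adjusted p = 0.000871). Of all genes 13.3% fell and 13.7% rose there. Foxd4 averaged 0.261 CPM with DOX and 11.0 CPM without. In DKO-labelled cells 2 of 6 rose, Fgf4 (4.60 ± 0.06, adjusted p = 1.61e-23, also counted as a naive gene) and Otx1 (1.69 ± 0.18, adjusted p = 4.26e-08), and Pou3f4 fell. These counts are not above the shares of all genes, 35.6% higher and 33.7% lower. With DOX in H188A, where Pou3f1 was not called, Pou3f3 (−1.74 ± 0.29, adjusted p = 0.0188) and Pou3f2 (−1.72 ± 0.30, adjusted p = 0.0211) fell. Of all genes 0.801% fell in that comparison. Pou3f2 averaged 1.34 CPM with DOX and 4.56 CPM without.

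The receptors for FGF and for TRH and the enzymes that make or break down TRH were taken as a separate list of 11. With DOX in iETV2, 13.7% of all genes rose and 13.3% fell. In this list 1 of 9 tested rose, the receptor Fgfr3 (0.72 ± 0.22, adjusted p = 0.0221), and 4 fell. These were the receptor Fgfr2 (−0.64 ± 0.08, adjusted p = 9.41e-06) and the prohormone-processing enzymes Pcsk1 (−0.54 ± 0.09, adjusted p = 0.000369), Pcsk2 (−1.44 ± 0.34, adjusted p = 0.00424) and Cpe (−0.30 ± 0.09, adjusted p = 0.0155). In DKO-labelled cells 5 of 8 rose and 3 fell, where 35.6% and 33.7% of all genes did. Pcsk1 (2.81 ± 0.13, adjusted p = 2.97e-14), Pcsk2 (2.99 ± 0.48, adjusted p = 1.04e-05), Cpe (0.57 ± 0.08, adjusted p = 9.03e-07) and Pam, the amidating enzyme (0.98 ± 0.05, adjusted p = 3.17e-13), rose, as did Fgfr4. Fgfr2 (−3.01 ± 0.06, adjusted p = 1.31e-20), Fgfr3 (−3.87 ± 0.14, adjusted p = 6.37e-16) and Fgfr1 (−0.20 ± 0.04, adjusted p = 0.000260) fell there. In H188A, Pam and Cpe rose with DOX, where 2.22% of all genes did, and no other of the 8 tested passed.

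No deposited H3K9me3 region lay in any of the 5 genes or within 5 kb of either end in any of the 6 libraries, where 38.4% of 21887 protein-coding genes had one in at least 1 library. Single libraries held 27.0 to 31.0% of genes with a region that near. The regions are the authors' calls for each library, and the line used for them is not named in the labels. In the mapped span of Otx2 (chr14:48656781-48667644), Pou3f1 (chr4:124657646-124660655), Foxd3 (chr4:99656299-99658671), Fgf5 (chr5:98254184-98277033) and Trh (chr6:92242061-92244650; GRCm38.p6, RefSeq) the count was therefore 0 with and without DOX.

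The nearest region to Otx2 was 63.4, 117 and 63.2 kb away with DOX and 61.0, 117 and 75.8 kb away untreated. Pou3f1 had 55.5, 55.5 and 107 kb with DOX and 167, 55.5 and 107 kb untreated. Otx2 and Pou3f1 both lay beyond the median distance of all protein-coding genes, 20.4 to 28.1 kb, in all 6 libraries. Foxd3 had 70.7, 19.7 and 14.5 kb with DOX and 51.3, 69.9 and 10.9 kb untreated. Trh had 10.2, 34.5 and 122 kb with DOX and 33.2, 82.5 and 9.55 kb untreated. For both, the distance varied more within a group than between the groups. Fgf5 had 42.2, 42.2 and 16.0 kb with DOX and 42.2 kb in each of the 3 untreated libraries.

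The region 42.2 kb from Fgf5, at chr5:98204801-98212000, was the nearest one in 5 libraries. It held 1136 and 973 ChIP counts in DOX replicates 1 and 2 against 257 and 270 input counts, and 963, 1111 and 874 ChIP counts in the untreated replicates against 222, 207 and 131 input counts. The authors' log2 fold of ChIP over input was 2.35 and 2.06 with DOX and 2.13, 2.16 and 2.57 untreated. DOX replicate 3 had a nearer region of 2600 bp at chr5:98235601-98238200, with a log2 fold of 1.62. Whether the farther region was also called in that library was not looked up. The values in the 5 libraries overlapped between DOX and untreated.

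**Figure D4:**
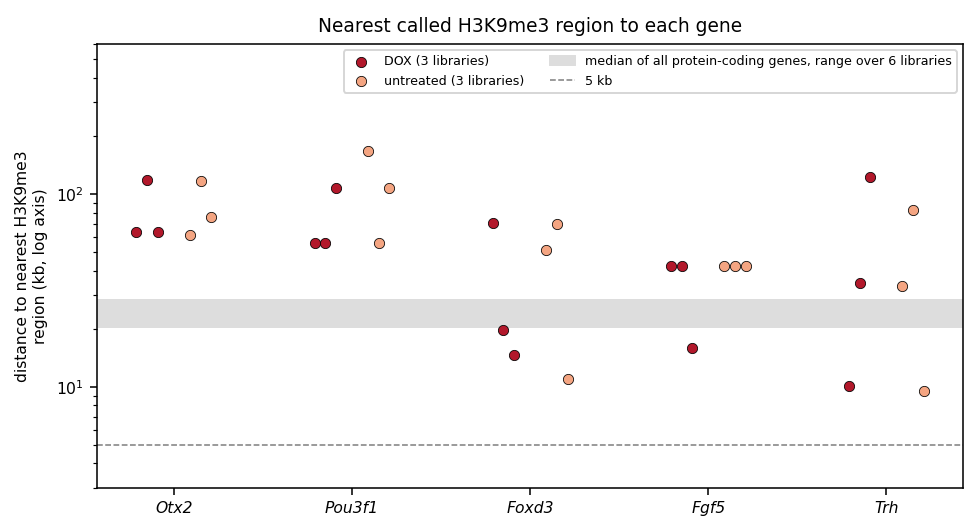
Distance in kb (log axis) from each gene to the nearest called H3K9me3 region, 1 point per ChIP library. All 30 points lie above 5 kb (dashed), and those of Otx2 and Pou3f1 lie above the grey band of the median protein-coding gene, 20.4 to 28.1 kb.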

How the data were processed

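RNA was sequenced in 18 libraries in 6 groups of 3 and H3K9me3 in 6 ChIP libraries, grouped by the labels' line, genotype and treatment. For each RNA library the authors deposited raw counts by Ensembl gene, with totals of 40334911 to 68970038. Per the submitters' processing notes the tools included HTSeq 2.0.3, featureCounts 2.0.6, STAR 2.7.10b, DESeq2 1.18.1, StringTie 2.2.1 and Picard 3.0.0, with ChIPseeker, DiffBind and Bowtie, on GRCm38 (mm10). The tool behind the counts, that behind the regions, and the strand setting, are not given in the sources used here. Per the file headers, each ChIP region has a score, a log2 fold, a p-value, an FDR, and counts of ChIP and input. The 6 input files hold no values and were not used.

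Genes were kept with edgeR's filterByExpr, scaled by TMM and tested with the quasi-likelihood test (edgeR 4.0.16, limma 3.58.1, R 4.3.3), two-sided, with Benjamini-Hochberg adjustment over all genes and a threshold of 0.05. Each DOX comparison and the DKO comparison used its own 6 libraries, and the line comparisons used 12. The SE was taken as the absolute log2 change over the root of F, and intervals are 95%. CPM uses the library total, without TMM factors. Counting intervals cover counting error only. Scripts were tested on simulated data. Alternatives were RLE size factors, DESeq2 1.42.0, other low-count filters, a replicate block, leaving out each library and all 18 libraries in 1 fit. Regions counted as near with at least 1 bp within 5 kb of a gene end (RefSeq, GRCm38.p6). Python 3.11.15, numpy 2.4.6, pandas 2.3.3, scipy 1.17.1 and matplotlib 3.10.9 were used.

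The 5 genes and 9 lists (other formative and primed epiblast, naive pluripotency, neural progenitor, neural crest, visceral endoderm, relatives of the 5 genes, FGF and TRH receptors and processing enzymes, embryonic stem cell, gastrulating mesoderm) were chosen with earlier results of these data known. Named genes are the 5, up to 4 genes per list, direction and comparison with the smallest adjusted p, the 2 genes most like each of the 5 by Pearson's r among genes averaging at least 1 CPM, Etv2, Kdm4a and Kdm4c, and the genes that marked the cell types. For 1 further gene under the rule no result is reported here, but it stayed in every test and count. Genes named beside a count because few were called, and Sox10, were chosen after their values were seen. Genes sharing reads with near-identical copies or an overlapping partner could be counted either way.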

Additional observations from a re-analysis of the deposited data

Results flagged for a closer look

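The response to DOX differed between the H188A and iETV2 lines in 3679 of 25516 genes, or 14.4%, by the test of the interaction of line and treatment (edgeR's quasi-likelihood test with Benjamini-Hochberg adjustment). Of these, 2098 had a higher response in H188A and 1581 a lower one. A tested difference between the effect in each line is what drew attention to it. The 5 genes lie on its higher side, as their choice by the DOX response in iETV2 favours, with differences between 1.33 (Otx2) and 2.36 (Pou3f1) on the log2 scale and no test. The count ran from 2585 to 4682 over the alternatives tried.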

How the results depend on the processing

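Of 450 recomputed log2 changes of the 5 genes, 425 kept their direction, their side of the threshold and their size within the spread, and 21 values with no test moved further. The 2 that turned direction were DOX changes in H188A near 0. Otx2 ran from −0.0277 (without H188A control replicate 1) to 0.14 when single libraries were left out, and Trh from −0.15 to 0.01 (without H188A DOX replicate 1). The other 2 were values of Otx2 between the untreated lines, 0.15 and 0.24, for which no test is given here. The count of genes called with DOX in H188A, 637, was 1417 with DESeq2, 1596 with all 18 libraries, 2032 with no filter, 423 with RLE size factors and 263 with the replicate block. Leaving out single libraries gave 81 to 1839 (203, 81 and 1839 without control replicates 1, 2 and 3, 140 and 91 without DOX replicates 2 and 3), so 1 library decides that count. The cause was not tested. None of the 5 genes was called there under any of these. Within 50 kb, single libraries had an H3K9me3 region for 1 to 3 of the 5 genes, where 62.8 to 68.3% of 21887 genes had one. In at least 1 library 3 of the 5 had one, and the share of all genes by that count was not taken at 50 kb. The stricter FDR of 0.001 and the overlap of 200 bp were tried at 5 kb, where the count was already 0 and stayed 0. Replicate numbers were not treated as pairs. For DOX in iETV2, same-numbered deviations correlated by −0.01, 0.32 and 0.56 in replicates 1, 2 and 3. There the replicate block raised the count of called genes from 5939 to 8380. A replicate effect shared by those libraries was not tested. The lowest correlation, −0.65, was between the untreated lines, which differ in line and in any batch that goes with it. With the block the other counts were 13926 (DKO), 9311 and 8970 (lines without and with DOX) and 3262 (interaction). At the depth used, Foxd3 and Fgf5 in the control of the DKO-labelled cells rest on 8 and 45 reads.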

Other observations

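Otx2os1, a non-coding gene beside Otx2 that was chosen for its place and not by the naming rule, had 0.224 ± 0.12 CPM in iETV2 with DOX and 0.945 ± 0.12 CPM in its control (SD, n = 3 each). It had 0.997 ± 0.25 CPM in DKO-labelled cells and 0.0434 ± 0.059 CPM in their control (SD, n = 3 each). Its log2 changes were −2.06 ± 0.51 (adjusted p = 0.00583 by edgeR's quasi-likelihood test) and 4.25 ± 0.64 (adjusted p = 4.57e-06). With DOX in H188A it had 0.626 ± 0.36 CPM, against 1.08 ± 0.30 CPM in its control (SD, n = 3 each, adjusted p = 0.364 by edgeR).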
